A study of Homo sapiens with 6 samples.

Results

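The BCL2 family comprises the proteins that control permeabilisation of the mitochondrial outer membrane, and 10 of its genes were followed here: the pro-survival genes BCL2, BCL2L1, MCL1 and BCL2A1, the effector genes BAX and BAK1, and the BH3-only genes BBC3, PMAIP1, BCL2L11 and BID. The list was drawn up with earlier results of these data known, its genes were found by symbol, and each matched 1 of the 24108 rows of the expression table. RNA-seq was performed on MDA-MB-231 cells, an established basal-type (triple-negative) breast cancer line, transduced for 48 h with lentivirus carrying either a hairpin against luciferase (shCtr, 3 samples) or a hairpin against ZNF148 (shZNF148, 3 samples). All 6 samples were then selected for 24 h in puromycin at 0.5 µg/ml, so transduction and drug selection were shared by both groups. A single hairpin was used against ZNF148, and an effect of that hairpin on other transcripts cannot be told apart from an effect of ZNF148 loss.

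ZNF148 is a zinc finger transcription factor that binds GC-rich DNA, and BAK1 is a reported target gene of it. In the family, the effectors BAX and BAK1 form pores in the mitochondrial outer membrane and release cytochrome c. Pro-survival proteins hold the effectors and the BH3-only proteins in check, while BH3-only proteins sense stress and either neutralise the pro-survival proteins or activate the effectors directly. Released cytochrome c binds APAF1 to assemble the apoptosome, which activates caspase-9 and, through it, further caspases.

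The promoter sequences of the effector pair are shown because both effector genes had higher values in every shZNF148 sample, and because BAK1 is the reported ZNF148 target. Each is the stretch of 250 bases before the RefSeq start, read 5′ to 3′ on the strand of the gene (GRCh38.p14). BAK1 lies on the minus strand at chr6:33580277-33580526 and BAX on the plus strand at chr19:48954625-48954874. Capitals mark matches on either strand to GGGNGGGG (a G-rich word), GGGCGGG (the GC box) or CACGTG (the canonical E-box, the word bound by MYC). The first of these words overlaps the second wherever GGGCGGGG occurs.
BAK1: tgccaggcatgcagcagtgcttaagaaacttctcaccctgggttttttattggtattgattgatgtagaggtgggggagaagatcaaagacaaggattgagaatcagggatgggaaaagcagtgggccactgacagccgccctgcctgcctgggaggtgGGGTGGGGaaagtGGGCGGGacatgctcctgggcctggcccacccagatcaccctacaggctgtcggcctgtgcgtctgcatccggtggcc
BAX: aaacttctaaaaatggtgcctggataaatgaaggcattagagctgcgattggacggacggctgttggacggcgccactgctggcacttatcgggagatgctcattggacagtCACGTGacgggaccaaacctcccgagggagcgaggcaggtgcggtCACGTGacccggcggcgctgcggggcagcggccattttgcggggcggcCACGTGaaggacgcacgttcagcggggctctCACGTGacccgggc

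The BAK1 window held 1 match to GGGNGGGG, 91 to 84 bases before the start, and 1 match to GGGCGGG, 78 to 72 bases before it. These words were common, occurring in 36.0% and 31.5% of all 35116 promoter windows of the same length. The BAX window held neither of them but held CACGTG 4 times, the nearest copy lying 14 to 9 bases before the start. CACGTG occurred in 6.34% of all windows, and only 5 windows held it 4 or more times. Of the 10 genes, 9 had a promoter in the RefSeq table, in 14 windows. PMAIP1 held 4 matches to GGGCGGG and BCL2L11 held 2. BID had several windows, some of them overlapping, which held 0 to 4 matches to GGGCGGG and 0 to 3 to GGGNGGGG. CACGTG was not limited to BAX, since the BID windows held 0 or 1 copy of it. The BBC3 window held 1 copy, 232 to 227 bases before the start, and neither of the other words. In contrast, the windows of BCL2, BCL2L1 and BCL2A1 held none of the 3 words. A match describes the letters of the window and does not show that a factor bound there.

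Absolute depth in reads was unknown, because values were deposited as FPKM (fragment counts scaled to transcript length and to the number of mapped fragments). Summed FPKM ranged from 497730 to 507312 in shCtr and from 469594 to 488173 in shZNF148, so every shZNF148 sample was below every control. The smallest steps between low values gave depths from 0.806 (shZNF148 replicate 3) to 1.13 (shZNF148 replicate 1) of that of shCtr replicate 1. The targeted gene ZNF148 was at 3.72, 4.36 and 4.30 FPKM in shCtr and at 0.914, 0.282 and 0.834 FPKM in shZNF148, a mean of 16.4% of control. It fell by 1.63 on the log2 scale (SE 0.18, adjusted p = 0.0099 from limma). Without shCtr replicate 1 or 3 its adjusted p was 0.0603 or 0.0568. The line markers VIM, CD44, KRT18, KRT8 and EGFR summed to 2659 to 2840 FPKM in shCtr and to 2267 to 2302 FPKM in shZNF148. Of these, CD44, KRT18 and EGFR passed the test as lower in shZNF148 and KRT8 overlapped between groups. The part of this in the results on the family was not tested. In bulk RNA, fewer cells of a kind and less RNA per cell cannot be told apart. Of 6 luminal markers, GATA3 and EPCAM averaged 8.47 and 9.81 FPKM, while PGR, FOXA1 and CDH1 averaged 0.0369, 0.0114 and 0.301 FPKM. All 6 luminal markers summed to 17.8 to 20.1 FPKM in shCtr and to 16.5 to 20.4 FPKM in shZNF148, a sum carried by GATA3 and EPCAM. None of 4 leukocyte, 3 endothelial and 3 fibroblast markers averaged 1 FPKM, although the fibroblast markers summed to 3.30 FPKM in shCtr replicate 2, and ESR1, the oestrogen receptor gene, was listed at 0 in all 6 samples.

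Differences were tested with limma on log2(FPKM + 1) over the 11777 rows that averaged at least 1 FPKM, with Benjamini-Hochberg adjustment over all of them. A row passed at an adjusted p under 0.05 and was called if it also differed by more than 1.5-fold. Of the 10 genes, 9 were tested, and BCL2A1 was too low. None of the 9 passed in limma, against 13.6% of all tested rows, and none was called, against 5.49% of all tested rows. At an unadjusted p under 0.05, 3 of the 9 stood out (BAK1, BAX and MCL1), as did 3981 of the 11777 rows. The same 3 genes were the ones whose groups did not overlap, a state found in 41.0% of all tested rows. A two-sided exact permutation test put each of them at p = 0.1, which is as small as a design of 3 against 3 can reach. The median log2 fold change of the 9 was -0.00, with 4 higher and 5 lower in shZNF148, and that of all tested rows was 0.01. Because 1 FPKM is added, the difference of a low gene comes out smaller than it is.

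**Figure D1:**
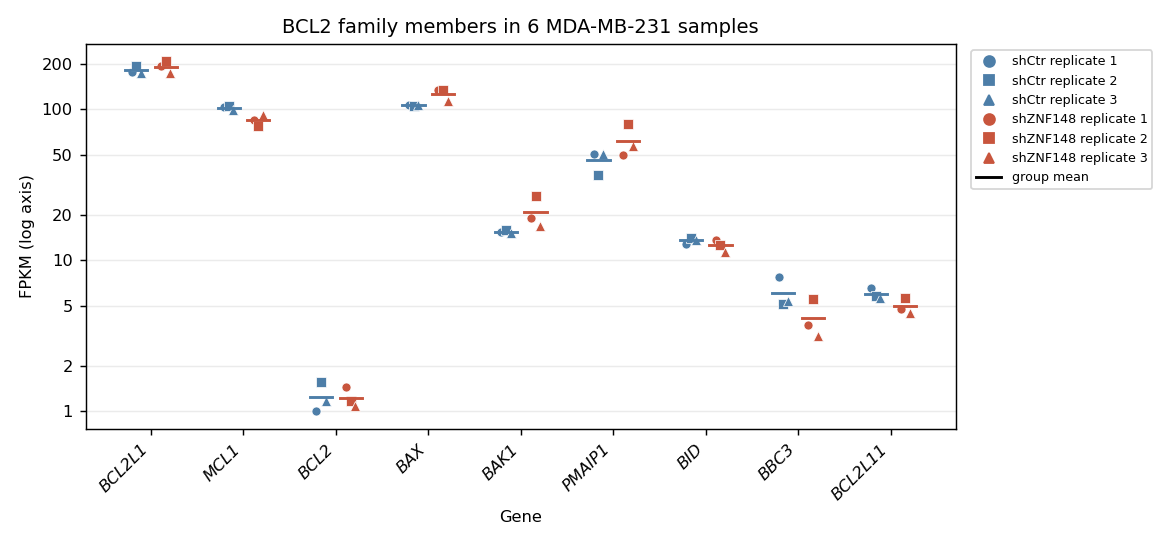
FPKM (log axis) of the 9 tested BCL2 family members in each of the 3 shCtr (blue) and 3 shZNF148 (red) samples, ordered by role (BCL2L1 to BCL2 pro-survival, BAX and BAK1 effectors, PMAIP1 to BCL2L11 BH3-only), with points as samples and lines as group means. BAK1 and BAX sit higher and MCL1 lower in all 3 shZNF148 samples, and levels span from about 1 FPKM for BCL2 to 181 FPKM for BCL2L1 in shCtr.

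The effectors were both higher in the shZNF148 samples. BAX (chromosome 19, 48954815 to 48961798, plus strand) was at 106, 104 and 107 FPKM in shCtr and at 134, 134 and 112 FPKM in shZNF148. The lowest shZNF148 sample, replicate 3, thus lay above the highest control. BAX averaged 106 ± 1.19 FPKM in the controls against 127 ± 12.3 FPKM (SD, n = 3 each). This was a difference of 0.26 on the log2 scale (SE 0.08, 95% interval 0.06 to 0.45) that did not pass in limma (adjusted p = 0.0793). Without shZNF148 replicate 3 its log2 fold change was 0.34 and its adjusted p was 0.0347, and after quantile normalization it was 0.31 with an adjusted p of 0.0443. These were the only 2 of 15 alternatives in which BAX passed, and its adjusted p in limma was 0.197 without shCtr replicate 1.

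BAK1 (chromosome 6, 33572547 to 33580293, minus strand) was at 15.3, 15.8 and 15.1 FPKM in shCtr and at 19.0, 26.5 and 16.9 FPKM in shZNF148. All 3 shZNF148 values were above the controls, but replicate 2 stood well above the other two. BAK1 averaged 15.4 ± 0.326 FPKM against 20.8 ± 5.04 FPKM (SD, n = 3 each), or 135% of control. On the log2 scale BAK1 differed by 0.38 (SE 0.16, 95% interval 0.01 to 0.75), which did not pass after adjustment (adjusted p = 0.137 from limma). Without shZNF148 replicate 2 it differed by 0.20 (adjusted p = 0.114). BAK1 has processed pseudogenes on chromosomes 11 and 20, and how reads were shared with them is not stated. BAX exceeded BAK1 in every sample, by between 5.05 and 7.06 times in FPKM.

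Among the pro-survival genes, MCL1 had lower values in shZNF148, whereas BCL2L1 and BCL2 overlapped between groups. MCL1 encodes a short-lived protein that restrains BAK1 and is bound by PMAIP1. MCL1 (chromosome 1, 150560895 to 150579738, minus strand) was at 103, 104 and 98.5 FPKM in shCtr and at 85.0, 77.5 and 91.2 FPKM in shZNF148. The highest shZNF148 value was below the lowest control. MCL1 averaged 102 ± 3.10 FPKM against 84.6 ± 6.82 FPKM (SD, n = 3 each). The difference of -0.27 on the log2 scale (SE 0.07, 95% interval -0.45 to -0.09) had the smallest adjusted p of the family, 0.0565 in limma. Without shZNF148 replicate 3 it was -0.33, with an adjusted p of 0.0485. This was the only 1 of 15 alternatives in which MCL1 passed. The adjusted p of MCL1 in limma was 0.136 after quantile normalization and 0.170 without shCtr replicate 1.

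BCL2L1, whose main product BCL-XL restrains both effectors, was the most abundant member by FPKM. It was at 176, 192 and 174 FPKM in shCtr and at 192, 206 and 172 FPKM in shZNF148. The groups overlapped, and the log2 fold change was 0.07 (SE 0.08, 95% interval -0.13 to 0.27, adjusted p = 0.589 from limma). Exons of the opposite-strand transcript ABALON cover 41.3% of the exonic bases of BCL2L1 in the annotation, and whether counting used strand is not stated. The ratio of BCL2L1 to MCL1 was between 1.70 and 1.85 in shCtr and between 1.89 and 2.66 in shZNF148.

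BCL2, the founding member of the family, was near the limit of the test. It was at 0.998, 1.57 and 1.17 FPKM in shCtr and at 1.44, 1.17 and 1.08 FPKM in shZNF148. The values overlapped, and the 95% interval of the log2 fold change ran from -0.36 to 0.35 (adjusted p = 0.986 from limma). Differences within that interval are compatible with these values, and the interval is not a limit of detection. BCL2A1, an NF-kB-induced member expressed mainly in blood cells, was listed at 0 in 5 of the 6 samples and at 0.145 FPKM in shZNF148 replicate 1.

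Of the BH3-only genes, PMAIP1 had a higher mean in shZNF148 and BBC3, BCL2L11 and BID had lower means, and none passed. PMAIP1, which encodes NOXA and binds MCL1, was at 50.3, 36.6 and 50.1 FPKM in shCtr and at 49.8, 79.1 and 56.7 FPKM in shZNF148. The groups overlapped, with shCtr replicate 2 the lowest and shZNF148 replicate 2 the highest. The log2 fold change was 0.42 (SE 0.20, 95% interval -0.05 to 0.89, adjusted p = 0.186 from limma), and 0.23 without shZNF148 replicate 2 or 0.27 without shCtr replicate 2. PMAIP1 was the most abundant BH3-only member, at 59.5% to 67.1% of the summed FPKM of the 4 in shCtr and 69.3% to 76.9% in shZNF148.

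BBC3, which encodes PUMA and binds all pro-survival proteins, was at 7.73, 5.11 and 5.397 FPKM in shCtr and at 3.70, 5.55 and 3.16 FPKM in shZNF148. Here shZNF148 replicate 2 was the sample that overlapped with the controls. The log2 fold change was -0.47 (SE 0.21, 95% interval -0.97 to 0.03, adjusted p = 0.168 from limma), and -0.66 without shZNF148 replicate 2 (adjusted p = 0.0601). Without shCtr replicate 1 it was -0.31.

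BCL2L11, which encodes BIM, was at 6.58, 5.79 and 5.59 FPKM in shCtr and at 4.76, 5.65 and 4.48 FPKM in shZNF148. As for BBC3, only shZNF148 replicate 2 reached into the control range. The log2 fold change of BCL2L11 was -0.23 (95% interval -0.49 to 0.03, adjusted p = 0.187 from limma). BID, which caspase-8 cleaves to link death receptors to mitochondria, was at 12.8, 14.05 and 13.6 FPKM in shCtr and at 13.7, 12.5 and 11.4 FPKM in shZNF148. These values overlapped, with a log2 fold change of -0.10 (95% interval -0.31 to 0.10, adjusted p = 0.432 from limma).

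FPKM is scaled to transcript length, so levels may be set beside each other. In shCtr the order was BCL2L1, BAX, MCL1, PMAIP1, BAK1, BID, BBC3, BCL2L11, BCL2 and BCL2A1. BBC3 and BCL2L11 (6.08 and 5.99 FPKM) had overlapping ranges and could not be ordered. The lowest value of BAX (104.3 FPKM) lay just above the highest value of MCL1 (104.2 FPKM). In shZNF148 BAX (127 ± 12.3 FPKM) lay above MCL1 (84.6 ± 6.82 FPKM) without overlap, and PMAIP1 (49.8 to 79.1 FPKM) reached into the range of MCL1 (77.5 to 91.2 FPKM).

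Summed by role, the effectors were at 121, 120 and 122 FPKM in shCtr and at 153, 160 and 129 FPKM in shZNF148. The pro-survival genes summed to 281, 298 and 273 FPKM in shCtr and to 279, 285 and 264 FPKM in shZNF148, which overlapped. The BH3-only genes summed to 77.5, 61.5 and 74.7 FPKM in shCtr and to 72.0, 103 and 75.7 FPKM in shZNF148, which overlapped too. The ratio of the effector to the pro-survival sum was 0.403 to 0.446 in shCtr and 0.489 to 0.561 in shZNF148. The sums are given as a description, with no test.

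**Figure D2:**
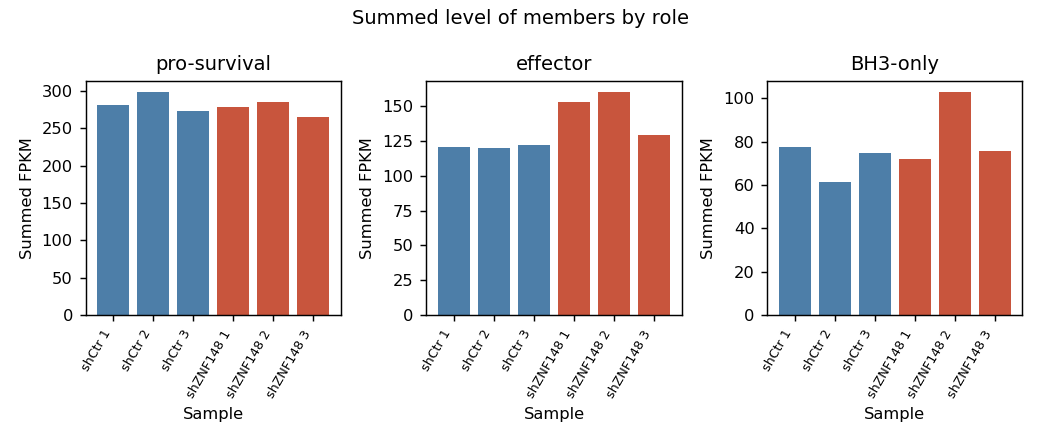
Summed FPKM of the pro-survival (BCL2, BCL2L1, MCL1, BCL2A1), effector (BAX, BAK1) and BH3-only (BBC3, PMAIP1, BCL2L11, BID) members in each sample, as bars from 0 with shCtr in blue and shZNF148 in red. The effector sum is above the controls in all 3 shZNF148 samples (129 to 160 against 120 to 122 FPKM), and the other sums overlap.

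Of 13 further BCL2 family genes, 9 were tested, 5 were higher and 4 lower, and none passed in limma, against 13.6% of all tested rows. Only BNIP3L of the 9 had an unadjusted p under 0.05, against 3981 of all 11777 tested rows. BNIP3L, a mitochondrial receptor for mitophagy, was at 63.0, 59.1 and 64.2 FPKM in shCtr and at 53.9, 50.6 and 57.2 FPKM in shZNF148 (log2 fold change -0.20, adjusted p = 0.0958 from limma). Its relative BNIP3 overlapped between groups (log2 fold change -0.11).

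BIK and BMF are further BH3-only genes. BIK was at 8.53, 10.6 and 6.69 FPKM in shCtr and at 10.5, 18.5 and 10.03 FPKM in shZNF148, and its log2 fold change of 0.51 (95% interval -0.09 to 1.11) was 0.25 without shZNF148 replicate 2. BMF was at 1.75, 1.69 and 1.92 FPKM in shCtr and at 2.31, 4.42 and 2.14 FPKM in shZNF148, and its log2 fold change of 0.46 (95% interval -0.06 to 0.98) was 0.21 without that sample. As for BAK1 and PMAIP1, shZNF148 replicate 2 was the highest of the 6 samples for BIK and BMF.

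BAD, a BH3-only protein controlled by phosphorylation, differed by 0.03 on the log2 scale (95% interval -0.12 to 0.17), and BOK, an effector-like protein, by -0.22 (-0.50 to 0.07). BCL2L12 and BCL2L13 differed by 0.12 and 0.20 and the row that joins BCL2L2 with PABPN1 by -0.12, none of which passed in limma (adjusted p = 0.254, 0.240 and 0.241). The row of BCL2L2 cannot be assigned to that gene alone. HRK and BCL2L14 were listed at 0 in all samples, BCL2L10 was at 0.492 FPKM in shCtr replicate 1 and listed at 0 elsewhere, and BCL2L15 did not exceed 0.0216 FPKM.

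**Figure D3:**
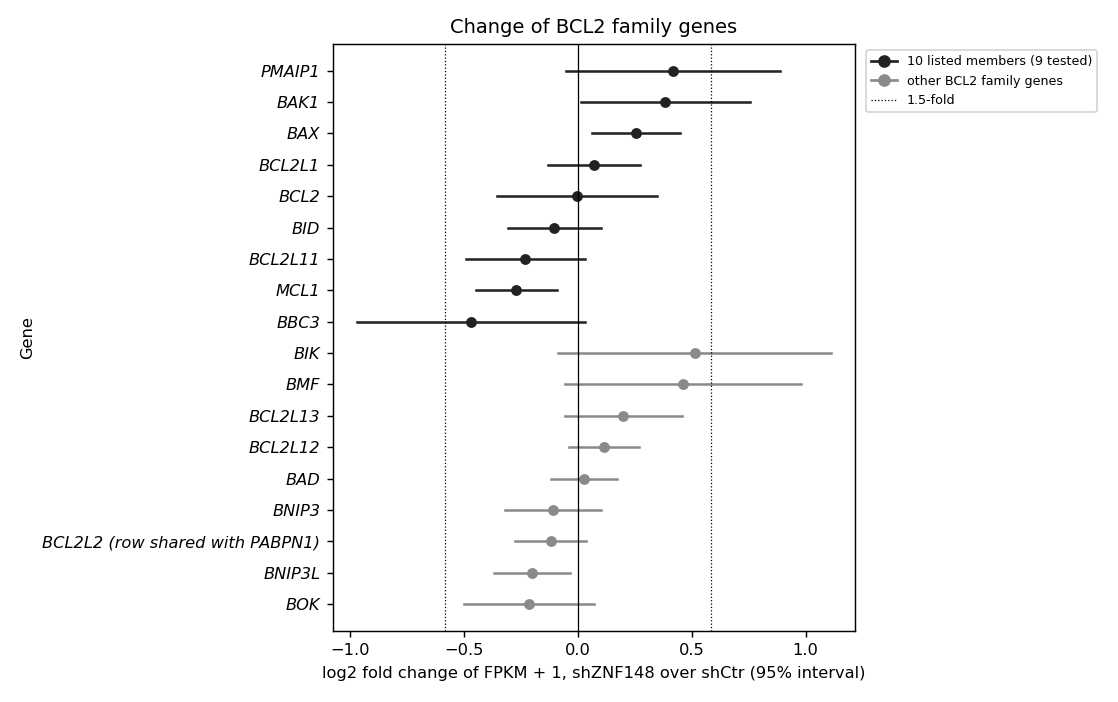
Log2 fold change of FPKM + 1 in shZNF148 over shCtr with its 95% interval from limma (3 samples in each group) for the 9 tested members (black) and 9 other BCL2 family genes (grey), with dotted lines at 1.5-fold. All 18 points lie inside the dotted lines, and the intervals of BAK1, BAX, MCL1 and BNIP3L are the ones that exclude 0. The added 1 FPKM shrinks the change of low genes. With 0.1 FPKM added instead (not drawn), BMF was at 0.62, outside the lines.

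A further list held the caspases and the apoptosome. Not all of it lies downstream of the family, since caspase-8 and its adaptor FADD act before BID. Of 15 such genes, all tested, 7 passed in limma with higher values in shZNF148 and 0 with lower values (46.7% of the 15). Over all tested rows, 5.46% passed as higher and 8.13% as lower. Among the 7 were CASP2, CASP6, CASP8, APAF1 and FADD. In each of the 7 the 3 shZNF148 samples lay above the 3 controls, and 2 further rows of the list lay wholly below. Groups did not overlap in 41.0% of all tested rows, in either direction, and rows that pass tend to be among these. The separation is therefore not separate support. The median log2 fold change of the 15 was 0.15. The number of rows that passed depended on single samples. None of the 15 passed when any 1 of the shCtr replicates was left out, 1 passed without shZNF148 replicate 1, 2 passed without shZNF148 replicate 3, and 6 passed without shZNF148 replicate 2, of which CFLAR was lower. Over all tested rows, the rows that passed went from 1600 to 29, 312 and 47 without shCtr replicates 1, 2 and 3, and to 403 without shZNF148 replicate 1.

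CASP6 encodes an effector caspase, while CASP8 with its adaptor FADD, CASP2 and APAF1 stand on the initiator side. CASP6 was at 13.7, 13.6 and 14.5 FPKM in shCtr and at 16.8, 19.6 and 17.8 FPKM in shZNF148. It rose by 0.35 on the log2 scale, with limma giving an adjusted p of 0.0356, and its groups did not overlap. CASP8 rose from 12.9 ± 0.634 to 17.9 ± 2.50 FPKM (SD, n = 3 each; adjusted p = 0.0478 from limma). FADD rose from 26.6 ± 0.881 to 33.1 ± 1.35 FPKM (SD, n = 3 each; adjusted p = 0.0305 from limma), although an opposite-strand transcript covers 59.2% of its exonic bases. CASP2 rose from 13.9 ± 0.346 to 18.8 ± 2.46 FPKM (SD, n = 3 each; adjusted p = 0.0446 from limma). APAF1 rose from 6.41 ± 0.616 to 9.33 ± 1.30 FPKM (SD, n = 3 each; adjusted p = 0.0445 from limma). Of 15 alternatives, CASP8 did not pass in 11, CASP2 in 9, APAF1 in 8, and CASP6 and FADD in 6 each.

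CFLAR, whose product FLIP competes with caspase-8 for FADD, was at 41.7, 49.1 and 44.9 FPKM in shCtr and at 34.4, 24.0 and 33.9 FPKM in shZNF148. The groups did not overlap, and the log2 fold change of -0.56 (SE 0.15) missed the threshold (adjusted p = 0.0510 from limma). Its adjusted p was 0.0313 without shZNF148 replicate 2 and at most 0.136 with another sample left out. It was also under the threshold with a pseudocount of 0.1 FPKM (adjusted p = 0.0486 from limma) or a filter at a mean of 5 FPKM (0.0462). The remaining genes, some of them named here after their values were seen, overlapped between groups, such as CASP9 (log2 fold change -0.01, 95% interval -0.38 to 0.36), the caspase that APAF1 activates, and CYCS (-0.05, 95% interval -0.34 to 0.23), which encodes cytochrome c. The exception was AIFM1, which lay lower in every shZNF148 sample without passing (adjusted p = 0.0676 from limma).

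**Figure D4:**
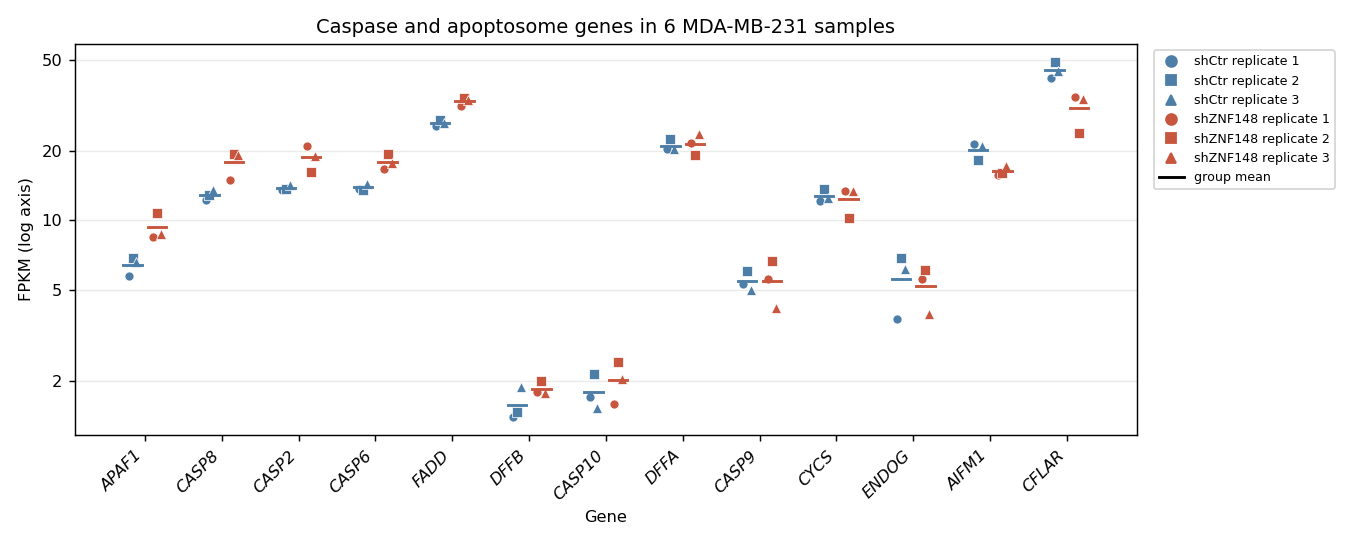
FPKM (log axis) of 13 caspase and apoptosome genes in each of the 3 shCtr (blue) and 3 shZNF148 (red) samples, with lines at group means and genes ordered by log2 fold change. The first 5 genes, APAF1 to FADD, have every shZNF148 sample above every control, while CFLAR at the right has every shZNF148 sample below.

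For comparison with the next lists, 13.6% of all tested rows passed in limma, and 3981 of the 11777 had an unadjusted p under 0.05. Inhibitors of apoptosis and their antagonists gave none of 6 tested rows in limma, 1 of which (BIRC5) had an unadjusted p under 0.05. Among them, BIRC5, which encodes survivin, was at 88.0, 97.5 and 94.9 FPKM in shCtr and at 69.1, 79.7 and 79.7 FPKM in shZNF148 (log2 fold change -0.29, adjusted p = 0.0553 from limma, and 0.0488 with upper-quartile scaling), and the row that joins BIRC2 and BIRC3 overlapped between groups (0.07, 95% interval -0.26 to 0.39). Mitochondrial partners gave none of 9 tested rows in limma, 0 of which had an unadjusted p under 0.05, and the most abundant were the row that joins MFN2 with PLOD1 (log2 fold change 0.18, 95% interval -0.16 to 0.52, and 0.0088 without shZNF148 replicate 2) and the row that joins VDAC1 with C5orf15 (0.10). Regulators of the members gave none of 11 tested rows in limma, 4 of which had an unadjusted p under 0.05, and at most 1 row under any alternative. The most abundant of these, DYNLL1, a dynein light chain that binds BIM, and HUWE1, a ubiquitin ligase of MCL1, had log2 fold changes of 0.10 and 0.01, with adjusted p of 0.266 and 0.911 in limma.

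**Figure D5:**
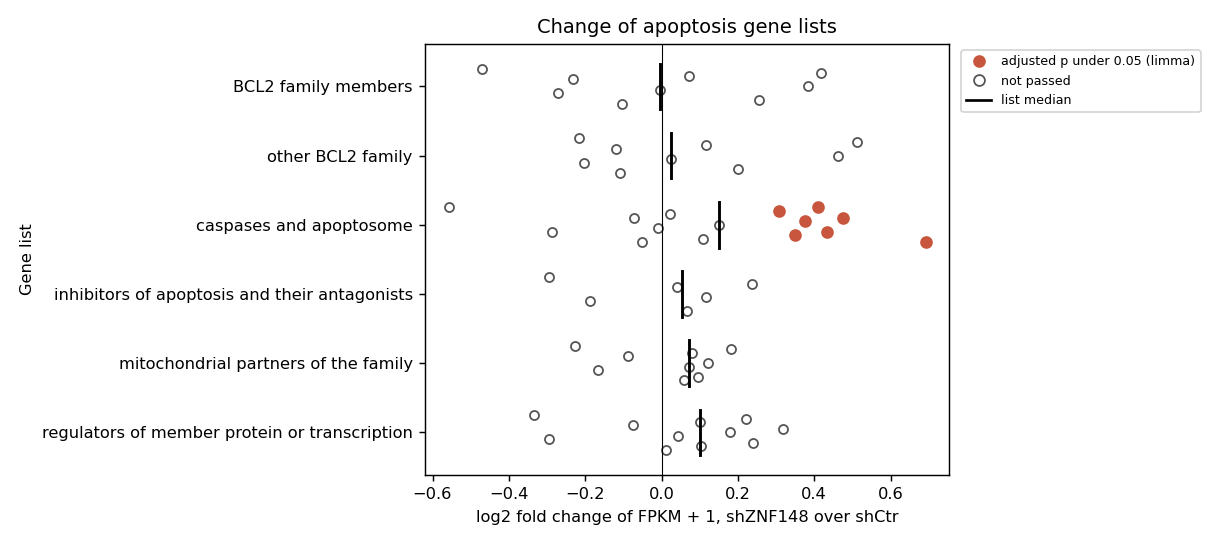
Log2 fold change of FPKM + 1 in shZNF148 over shCtr for each tested row of 6 apoptosis gene lists, with filled points at an adjusted p under 0.05 from limma, open points for rows that did not pass, and bars at list medians. Filled points occur in the caspase and apoptosome list (7, all higher), and none in the other lists.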

How the data were processed

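RNA-seq of 3 shCtr and 3 shZNF148 MDA-MB-231 samples was deposited by the authors as 1 table of FPKM, each sample in its own column, and 0 further sample columns were left unused. Per the labels, processing named bcl2fastq 2.17.1.14, TopHat2 2.0.14, Cufflinks 2.2.1 and Cuffnorm 2.2.1, with builds hg18 and hg19. The methods of the study name Salmon on GRCh38 instead. Which of these made the table, with which annotation and scaling, is not given in the sources used here. FPKM are not counts, so no count test was run. No batch or date is given in the labels. Nothing says whether replicates were separate cultures, so p-values measure the spread between these samples.

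The thresholds of the study (adjusted p under 0.05 and more than 1.5-fold) were kept. Rows averaging at least 1 FPKM over the 6 samples were fitted in limma 3.58.1 (R 4.3.3) on log2(FPKM + 1) with condition as the only term and eBayes with a mean-variance trend. Intervals are 95% intervals of that fit. Single genes were also compared with an exact two-sided permutation test (scipy 1.17.1). The fit was tested on simulated data with log2 changes of 1 and 2, of which 79% and 95% were called. Changes as small as those of the members were not simulated, so this does not show how often such changes would be called.

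The members and all lists were chosen with earlier results of these data known. The named genes were the members, ZNF148, the other family genes and, in each other list, the rows that passed and the most abundant pair. Where a gene had several rows, the row of highest mean was used. MARCH5 was not found by symbol. Some genes and 1 list are not reported here. Gene positions and exon overlaps were taken from GENCODE on GRCh38 and promoters from RefSeq, since the table has no coordinates. Alternatives covered the pseudocount, filter, scaling, variance model, replicate block, summed rows and leaving out each sample.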

Additional observations from a re-analysis of the deposited data

How the results depend on the processing

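Of the 9 tested members, 8 kept their direction under every alternative in which they were fitted, and BCL2, whose log2 fold change was -0.00, did in 10 of 14. The number of members that passed was 0 except after quantile normalization (1, BAX) and without shZNF148 replicate 3 (2, BAX and MCL1), so that leaving out 1 sample gave 0 to 2. ZNF148 kept its direction, from -1.74 to -1.45 with each sample left out. The size of its log2 fold change depended more on the pseudocount, at -2.57 with 0.1 FPKM and -0.69 with 5 FPKM. The caspase and apoptosome rows that passed numbered 4 with no filter on low values, 0 with the replicate block, and 0 to 6 with each sample left out. The 1600 rows that passed over the whole table became 401 with the block and 29 to 1731 with each sample left out. Rows called higher (216) became 76 at a pseudocount of 5 FPKM, 99 with the block and 3 to 222 with each sample left out, and those called lower (431) became 204, 216 and 26 to 397. The cause was not tested. Whether replicate numbers pair the samples is not stated. The deviations of same-numbered samples correlated at 0.001, -0.088 and 0.030, and those of differently numbered samples at -0.085 to 0.083. With 3 samples per group these values cannot settle whether samples were paired. No member passed either in the main fit or with the block, so the members cannot show an effect of the block on calls. Inhibitors of apoptosis gave 1 row that passed with upper-quartile scaling (BIRC5). Absolute depth could not be read from FPKM.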
